A study of Rattus norvegicus with 8 samples.

Results

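The genes described here encode the cytochrome P450 enzymes and the enzymes that work beside them on drugs, lipids, steroids and reactive aldehydes, in cultured rat chondrocytes. They are all genes of the array annotation whose symbol starts with Cyp, Gst, Ugt, Sult, Aldh or Akr and a family number or class letter. Cyp1a1, Cyp1b1, Cyp51, Aldh3a1 and Gsta1 were left out by the same rule. Probe sets that name 1 gene gave 129 such genes among 14217 genes in all, and where a gene had several probe sets the one with the highest mean stands for it. The rule used only symbols. The 129 comprise 30 P450 enzymes of families 1 to 3, 10 of family 4, 15 of other P450 families, 20 glutathione transferases, 9 UDP-glucuronosyltransferases, 14 sulfotransferases, 16 aldehyde dehydrogenases and 15 aldo-keto reductases. These classes follow the symbols and not the activity of each enzyme, and Ugt8 was counted among the 9 by its symbol alone.

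P450 enzymes are haem monooxygenases. Those of families 1 to 3 oxidize many foreign compounds, those of family 4 hydroxylate fatty acids and eicosanoids, and the remaining families mostly build or break down sterols, steroids, bile acids, vitamin D and retinoic acid. Aldehyde dehydrogenases and aldo-keto reductases convert carbonyl groups. Glutathione transferases, UDP-glucuronosyltransferases and sulfotransferases attach glutathione, glucuronic acid or sulfate, which makes their substrates easier to excrete. Most of this equipment is known for the liver, whereas oxysterol, retinoid and aldehyde metabolism also takes place in many other tissues.

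Primary chondrocytes, isolated from femoral condyles of newborn (neonatal) Sprague Dawley rats, were grown as a monolayer on plastic to confluence and kept overnight in serum-free media. They were pretreated for 30 min with DMSO, the solvent, or with U0126, an inhibitor of the kinase MEK that activates ERK, and then received vehicle (BSA) or TNFα at 30 ng/ml for 24 h. The 4 groups are called DMSO, U0126, TNFα and U0126/TNFα, and each was measured on 1 Affymetrix RAT230_2.0 array in each of 2 independent experiments, which gives 8 arrays. The comparisons ask how the enzymes respond to TNFα, how they respond to U0126, and whether U0126 changes the response to TNFα. No array has another MEK inhibitor or an inactive analogue. Effects of MEK inhibition and other effects of the compound therefore cannot be told apart. Values are linear probe set intensities after each array was centred on its median, which lay between 365.1 and 378.2 before centring and at 369.7 after it. An intensity depends on the probes as well as on the transcript, so intensities of different genes are not compared with each other. A fold is the ratio of 2 arrays of the same experiment. A gene is said to have risen or fallen where limma, fitted across all probe sets of the 8 arrays with the experiment as a block, gave a Benjamini-Hochberg adjusted p below 0.05. The fold rule is the criterion of the study's methods, a change of 1.45-fold or more that goes one way in both experiments, and it has no p.

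Most of the enzymes were measured at low intensity. Of the 129 genes, 42 had a mean intensity above the array median and 87 at or below it. Of the P450 enzymes of families 1 to 3, Cyp2d4 and Cyp2u1 were above it and the other 28 were not, and none of the 9 UDP-glucuronosyltransferases was above it. Of the aldehyde dehydrogenases 11 of 16, of the aldo-keto reductases 8 of 15, and of the glutathione transferases 12 of 20 were above it. Without detection calls, signal of this size cannot be told from background. The cells carried the labelled cell type's markers: all 8 measured of 10 chondrocyte markers were above the array median, with Sox9 and Matn3 not measured, as were all 6 fibroblast and perichondrium markers and 4 of 5 adipocyte markers, whereas 0 of 7 measured hepatocyte markers and 0 of 5 endothelial markers were. The markers therefore do not tell chondrocytes from fibroblasts by this count. Adipocyte markers differed between the experiments, with a summed intensity of 5 genes from 1862 to 2762 in experiment 1 and from 13438 to 19224 in experiment 2. Of the macrophage markers, Adgre1 was at 30.0 and 201 in DMSO in experiments 1 and 2, and the defining marker Ptprc, which encodes CD45, stayed between 60.6 and 69.7. In cultures of several cell types, fewer cells of a type and less RNA per cell cannot be told apart.

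Over all 129, the spread of the enzymes over the 8 arrays was near that of all genes, but above the array median it was wider. The highest intensity of a gene was less than 1.45 times the lowest in 99 of the 129 enzymes, 76.7%, and in 75.4% of all genes. Of the 87 enzymes at or below the array median it was so in 76, 87.4%, beside 83.0% of all genes of such signal, and of the 42 above it in 23, 54.8%, beside 71.5%. Cyp4b1 varied most, by 4.48-fold, followed by Cyp7b1 at 4.02-fold, Sult1a1 at 3.70-fold and Aldh1a3 at 3.55-fold. Cyp7b1 varied with treatment, whereas Sult1a1, Cyp4b1 and Aldh1a3 differed between the experiments in every group.

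TNFα raised 6 of the 129 enzymes and lowered 0 by limma. They were the oxysterol hydroxylase Cyp7b1, the fatty acid P450 enzymes Cyp4f17 and Cyp4v3, and the aldehyde dehydrogenases Aldh3a2, Aldh16a1 and Aldh7a1. Of all 14217 genes, 4.21% rose and 2.12% fell, so the share of risers among the enzymes, 6 of 129, lay close to the background. At an unadjusted p below 0.05, 14 of the 129 were higher and 26 lower, beside 14% of all genes in each direction. The median log2 fold change was -0.08 over the enzymes and -0.01 over all genes. The fold rule was met upwards by 3 enzymes, Cyp7b1, Cyp4f17 and Cyp4b1, beside 2.19% of all genes, and downwards by 0. These counts depended on single arrays and on the experiment as a block. Without the DMSO array of experiment 1, the DMSO array of experiment 2 or the TNFα array of experiment 1, 2 enzymes passed, Cyp7b1 and Cyp4f17, without the TNFα array of experiment 2, 10 passed, and with no block 0 passed. When only the DMSO and TNFα arrays were fitted, Cyp7b1 and Cyp4f17 passed, and after quantile normalization 4 of the 6 passed, with Aldh7a1 and Cyp4v3 lost and Sult5a1 gained as an enzyme that was lower.

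Cyp7b1, which hydroxylates oxysterols and some steroids, showed the widest response. Its intensity was 102 and 94.8 in DMSO in experiments 1 and 2, 102 and 82.4 in U0126, 331 and 265 in TNFα, and 159 and 138 in U0126/TNFα. The TNFα arrays were the highest, the U0126/TNFα arrays lay between them and the vehicle arrays, and neither group with TNFα overlapped with DMSO or U0126. TNFα raised it 3.24-fold and 2.80-fold, a log2 fold change of 1.59 ± 0.07 (SE, n = 2 arrays per group, limma, adjusted p = 3.07e-04). All 8 of its arrays were below the array median, so the ratios are ratios of measured signal, with an unknown part of background in it, and not of transcript. The summed intensity of 8 macrophage markers, of which 2 were above the array median, went from 2235 and 3506 in DMSO to 3060 and 3970 in TNFα, and was 2172 and 3020 in U0126/TNFα. One of the 8, Cd68, rose with TNFα, and read 216 and 434 in DMSO, 472 and 641 in TNFα, and 245 and 493 in U0126/TNFα. Ptprc read 67.1 and 68.7 in DMSO and 65.8 and 67.0 in TNFα. Of the 8 chondrocyte markers, 6 fell with TNFα. The part of either cell type in the rise of Cyp7b1 was not tested.

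Cyp4f17, of the P450 subfamily that hydroxylates fatty acids and eicosanoids, read 155 and 184 in DMSO, 162 and 201 in U0126, 275 and 353 in TNFα, and 226 and 260 in U0126/TNFα. Every array with TNFα was above every array without it, and all 8 were below the array median, with the same limit as for Cyp7b1. TNFα raised it 1.77-fold and 1.92-fold, a log2 fold change of 0.88 ± 0.07 (SE, n = 2, limma, adjusted p = 0.00148). Cyp4v3, a fatty acid hydroxylase, read 706 and 979 in DMSO, 691 and 1017 in U0126, 1091 and 1267 in TNFα, and 902 and 1084 in U0126/TNFα. Its TNFα arrays were above its DMSO arrays, and its U0126/TNFα arrays overlapped with both vehicle groups. TNFα raised it 1.54-fold and 1.29-fold (log2 0.50 ± 0.10, SE, limma, adjusted p = 0.0356). A second probe set of Cyp4v3 with a lower signal did not move with it (log2 0.02, limma, adjusted p = 0.864).

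Aldh3a2 encodes the fatty aldehyde dehydrogenase, which oxidizes long-chain aliphatic aldehydes. It read 955 and 1234 in DMSO, 1085 and 1462 in U0126, 1270 and 1602 in TNFα, and 1215 and 1639 in U0126/TNFα. Experiment 2 was higher in every group, so that the groups separated within an experiment, by 1.33-fold and 1.3-fold for TNFα over DMSO (log2 0.39 ± 0.06, SE, limma, adjusted p = 0.0192). Aldh16a1, a member of the family thought to lack dehydrogenase activity, read 1643 and 2020 in DMSO, 1630 and 1990 in U0126, 2176 and 2592 in TNFα, and 1805 and 2307 in U0126/TNFα. The TNFα array was the highest of the 4 arrays in each experiment, and the rise over DMSO was 1.32-fold and 1.28-fold (log2 0.38 ± 0.06, SE, limma, adjusted p = 0.0202). Aldh7a1, which acts in the breakdown of lysine, read 3255 and 3242 in DMSO, 3412 and 3327 in U0126, 4246 and 4021 in TNFα, and 4394 and 3884 in U0126/TNFα. Every array with TNFα was above every array without it, and the rise over DMSO was 1.3-fold and 1.24-fold (log2 0.35 ± 0.07, SE, limma, adjusted p = 0.0377). The calls of the 3 dehydrogenases and of Cyp4v3 were lost without any one of the DMSO array of experiment 1, the DMSO array of experiment 2 or the TNFα array of experiment 1, whereas those of Cyp7b1 and Cyp4f17 held when any 1 of the 8 arrays was left out. Aldh7a1 lost its call when any 1 of the 8 arrays was left out, Aldh16a1 also without either U0126 array (adjusted p = 0.0523) and Cyp4v3 also without either U0126/TNFα array (adjusted p = 0.0664). When only the DMSO and TNFα arrays were fitted, the calls of Cyp4v3 and the 3 dehydrogenases were lost, with adjusted p from 0.100 to 0.133. After quantile normalization those of Aldh7a1 (log2 0.27, adjusted p = 0.0731) and Cyp4v3 (log2 0.42, adjusted p = 0.0514) were lost.

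**Figure D1:**
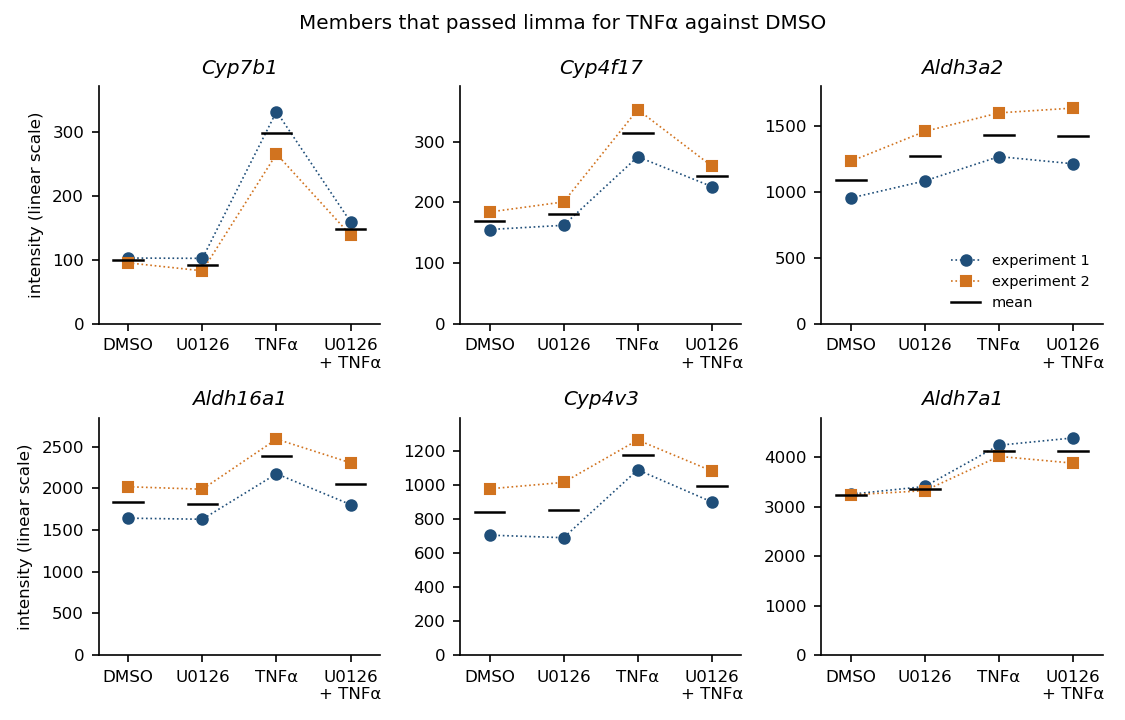
Intensity (linear scale, each vertical axis from 0) of the 6 enzymes that passed limma for TNFα over DMSO, in the 4 groups. Circles are experiment 1, squares experiment 2 and bars the mean of the 2 arrays. Cyp7b1 rose from 102 to 331 in experiment 1 and from 94.8 to 265 in experiment 2, and reached 159 and 138 in U0126/TNFα.

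Promoter sequence was taken for 106 of the 129 enzymes, as the 250 bases before the start of transcription in RefSeq on the build GRCr8. They were searched on both strands for GCGTG, the core that the aryl hydrocarbon receptor binds, for TGACNNNGC, the core of the antioxidant response element that NRF2 binds, and for the decamer κB site of NF-κB with 1 free base. GCGTG was found in 24.5% of the 106 and in 25.9% of all 33469 promoters, and TGACNNNGC in 12.3% and 10.1%. The κB site was found in 1 of the 106, 0.943%, beside 0.314% of all promoters. A match is a string of letters and not a measured binding site. Of the 6 enzymes that rose, Aldh3a2, Aldh16a1 and Aldh7a1 had a sequence, and those of the first 2 are shown because their rises were nearly equal and their matches differ. They are written from 5′ to 3′ on the strand of the gene, and capitals mark the matches.
Aldh3a2 (chr10:46448336-46448585, minus strand): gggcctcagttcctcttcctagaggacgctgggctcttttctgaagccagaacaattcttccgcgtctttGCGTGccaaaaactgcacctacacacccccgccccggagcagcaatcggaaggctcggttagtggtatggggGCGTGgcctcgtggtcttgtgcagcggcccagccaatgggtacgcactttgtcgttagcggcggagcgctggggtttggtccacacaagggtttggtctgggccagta
Aldh16a1 (chr1:104776271-104776520, minus strand): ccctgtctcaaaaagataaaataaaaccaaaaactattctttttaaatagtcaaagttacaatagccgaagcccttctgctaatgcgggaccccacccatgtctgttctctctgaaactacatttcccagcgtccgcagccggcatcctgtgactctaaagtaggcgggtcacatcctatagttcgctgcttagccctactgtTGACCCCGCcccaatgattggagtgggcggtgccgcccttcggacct

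Aldh3a2 held GCGTG at 180 to 176 and at 108 to 104 bases before the start, and Aldh16a1 held TGACCCCGC at 47 to 39. Aldh7a1 held GCGTG at 134 to 130, and Cyp4b1 held TGACTGGGC at 22 to 14.

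Other enzymes were higher with TNFα in 1 experiment more than in the other, and did not pass the test. Cyp4b1, a P450 known for its abundance in lung, read 363 and 767 in DMSO, 512 and 1596 in U0126, 713 and 1155 in TNFα, and 575 and 1629 in U0126/TNFα. It met the fold rule for TNFα at 1.96-fold and 1.51-fold, yet its log2 fold change of 0.78 ± 0.21 (SE) did not pass limma (adjusted p = 0.0793). Its arrays of experiment 2 were higher than those of experiment 1 in every group. The mu class transferase Gstm5 read 6277 and 5372 in DMSO, 6186 and 5183 in U0126, 12519 and 6573 in TNFα, and 8757 and 6196 in U0126/TNFα. Both TNFα arrays were above both DMSO arrays, but the ratio was 1.99 in experiment 1 and 1.22 in experiment 2, and the mean log2 fold change of 0.64 ± 0.16 (SE) did not pass (limma, adjusted p = 0.0701). Without the TNFα array of experiment 2 it did (adjusted p = 0.00876), as did Cyp4b1 (adjusted p = 0.0201). Akr1b8, an aldose reductase-like enzyme, had the same imbalance, with 225 and 398 for DMSO and 423 and 450 for TNFα, ratios of 1.88 and 1.13 (log2 0.54, limma, adjusted p = 0.133). Akr1c14, which reduces ketosteroids, read 449 and 851 in DMSO and 825 and 959 in TNFα (log2 0.53, limma, adjusted p = 0.197).

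In each class without a call, the enzyme with the smallest p for TNFα had a log2 fold change between -0.29 and 0.64, and only Gstm5 among them was higher. Cyp2a3, of the foreign compound P450 enzymes, was at -0.29 ± 0.07 (SE, limma, adjusted p = 0.0565). The aldo-keto reductase Akr1b10 was at -0.27 ± 0.06 (SE, limma, adjusted p = 0.0515), with 233 and 217 for DMSO and 195 and 179 for TNFα, and its second probe set was at -0.08 (limma, adjusted p = 0.525). The sulfotransferase Sult5a1 read 911 and 912 in DMSO, 929 and 1044 in U0126, 737 and 766 in TNFα, and 781 and 801 in U0126/TNFα. Both groups with TNFα were below both groups without it. The log2 fold change for TNFα was -0.28 ± 0.07 (SE, limma, adjusted p = 0.0629), and it passed after quantile normalization (-0.36, adjusted p = 0.0294). The UDP-glucuronosyltransferase Ugt2b1 was at -0.24 (limma, adjusted p = 0.111).

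The measured signal of the P450 enzymes of families 1 to 3 was slightly lower with TNFα as a class. Of the 30, 26 were lower in both experiments and 0 higher in both, 11 were lower at an unadjusted p below 0.05, and 0 passed the adjusted test. Their median log2 fold change was -0.13, with a range from -0.29 for Cyp2a3 to 0.00. Over all 14217 genes, 37.5% were lower in both experiments, and 14% were lower at an unadjusted p below 0.05. The 4896 genes at or below the array median, as 28 of the 30 were, had a median of -0.10, and 58.0% of them were lower in both. All 26 enzymes that were lower in both were among these 28, whose median was -0.14 and whose signal cannot be told from background. Of the 2 above the array median, Cyp2d4 and Cyp2u1, 0 were lower in both, and their median was -0.04. The class median was -0.10 after quantile normalization and -0.13 with no centring. Genes at or below the array median were at -0.05 and -0.09 in these settings. The part of low signal in this difference was not tested. Among the 15 P450 enzymes of other families, 9 were lower and 2 higher in both experiments, and Cyp7b1 was the only one to pass. Cyp27b1, which activates vitamin D, read 484 and 515 in DMSO and 494 and 512 in TNFα, and the 95% interval of its log2 fold change was -0.18 to 0.20. Aromatase, Cyp19a1, was at -0.20 (limma, adjusted p = 0.189).

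**Figure D2:**
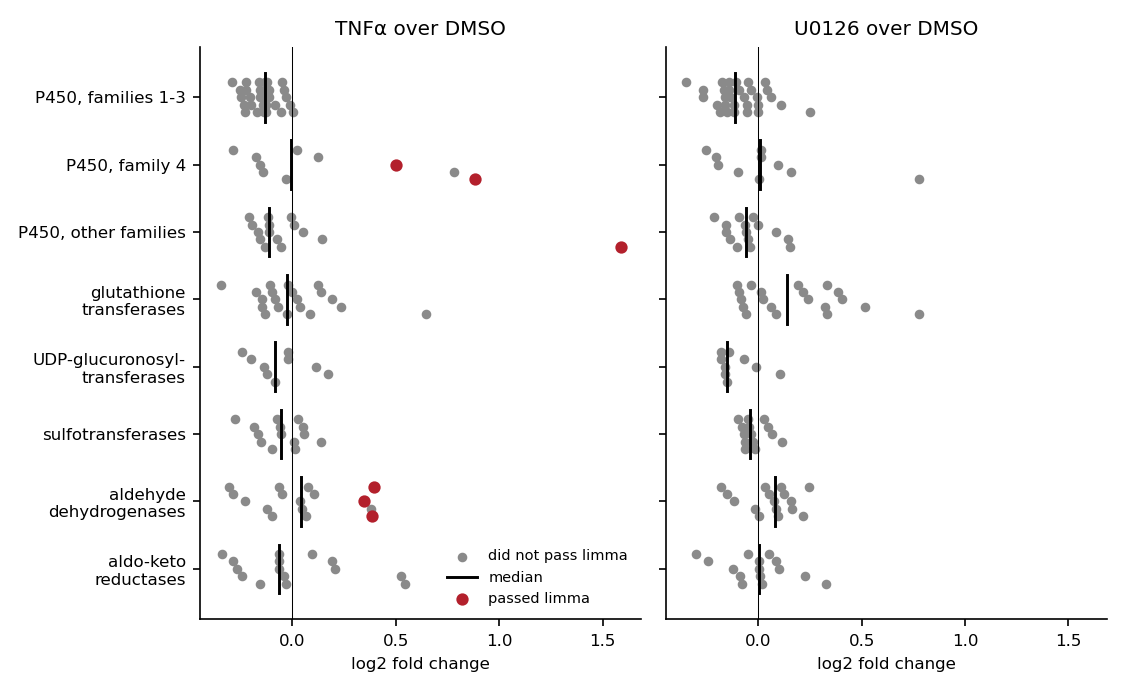
Log2 fold change of each of the 129 enzymes by class for TNFα over DMSO (left) and U0126 over DMSO (right). Each point is 1 gene, filled points in red passed limma, and vertical bars are class medians. The class of families 1 to 3 has its median at -0.13 for TNFα, and the glutathione transferases have theirs at 0.14 for U0126.

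U0126 alone raised 0 and lowered 0 of the 129 enzymes by limma, with the smallest adjusted p at 0.198. At an unadjusted p below 0.05, 11 were higher and 13 lower, beside 7.45% and 6.01% of all genes. Of all genes, 0.0914% rose and 0 fell. Of the 5 enzymes that the rule leaves out, 3 rose with U0126, Cyp1a1, Cyp1b1 and Aldh3a1. Among the 129, the fold rule was met upwards by Gstt3 alone, beside 0.239% of all genes. Gstt3, a theta class transferase, read 140 and 146 in DMSO, 227 and 264 in U0126, 111 and 115 in TNFα, and 167 and 127 in U0126/TNFα. The U0126 arrays were the highest and the TNFα arrays the lowest. Every array of Gstt3 was below the array median, with the same limit as for Cyp7b1. The ratios of U0126 to DMSO were 1.62 and 1.81, a log2 fold change of 0.77 ± 0.14 (SE, limma, adjusted p = 0.198). It passed when only the DMSO and U0126 arrays were fitted (adjusted p = 0.0424).

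Of the 8 classes, glutathione transferases had the largest share of members that were higher with U0126 in both experiments. Of the 20, 12 were higher in both experiments and 5 lower in both, 7 were higher and 0 lower at an unadjusted p below 0.05, and 0 passed the adjusted test. Of all genes, 34.6% were higher in both, and 7.45% were higher at an unadjusted p below 0.05. Of the 12 transferases above the array median 9 were higher in both, beside 44.9% of the 9321 genes above it, and their median log2 fold change was 0.23 beside 0.04. Of the 8 at or below it 3 were higher in both, beside 15.0% of the genes of such signal. The class median was 0.14 on the log2 scale, beside 0.01 over all genes. It was 0.10 after quantile normalization and 0.13 with no centring, beside -0.01 and 0.00 over all genes. The pi class transferase Gstp1 read 6284 and 6734 in DMSO, 9792 and 8836 in U0126, 5597 and 6709 in TNFα, and 9160 and 8554 in U0126/TNFα. All 4 arrays with U0126 were above all 4 without it. Its ratios of U0126 to DMSO were 1.56 and 1.31, a log2 fold change of 0.52 ± 0.11 (SE, 95% interval 0.27 to 0.77, limma, adjusted p = 0.213). Gstt1, also of the theta class, read 581 and 720 in DMSO and 754 and 944 in U0126, ratios of 1.3 and 1.31 (log2 0.38 ± 0.07, SE, limma, adjusted p = 0.206). Gstt2 had ratios of 1.39 and 1.26 and a second probe set with ratios of 1.12 and 1.04. The alpha class Gsta4, which conjugates the lipid peroxidation product hydroxynonenal, had ratios of 1.19 and 1.33, the mu class Gstm2 1.27 and 1.23, and the omega class Gsto1 1.1 and 1.19. In cells with TNFα, U0126/TNFα over TNFα gave 11 of the 20 higher and 4 lower in both experiments, 5 higher at an unadjusted p below 0.05 and 0 past the adjusted test. Of all genes, 33.0% were higher and 30.5% lower in both experiments there, and 6.26% were higher at an unadjusted p below 0.05. Those 5 were Gstp1, Gstt1, Gstt2, Gstt3 and Gsta4. Gstp1 was the one with the widest difference there, at ratios of 1.64 and 1.28 (log2 0.53 ± 0.11, SE, limma, adjusted p = 0.112). The probes of a class can share targets among closely related transferases, so a value may hold signal from more than the named gene.

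**Figure D3:**
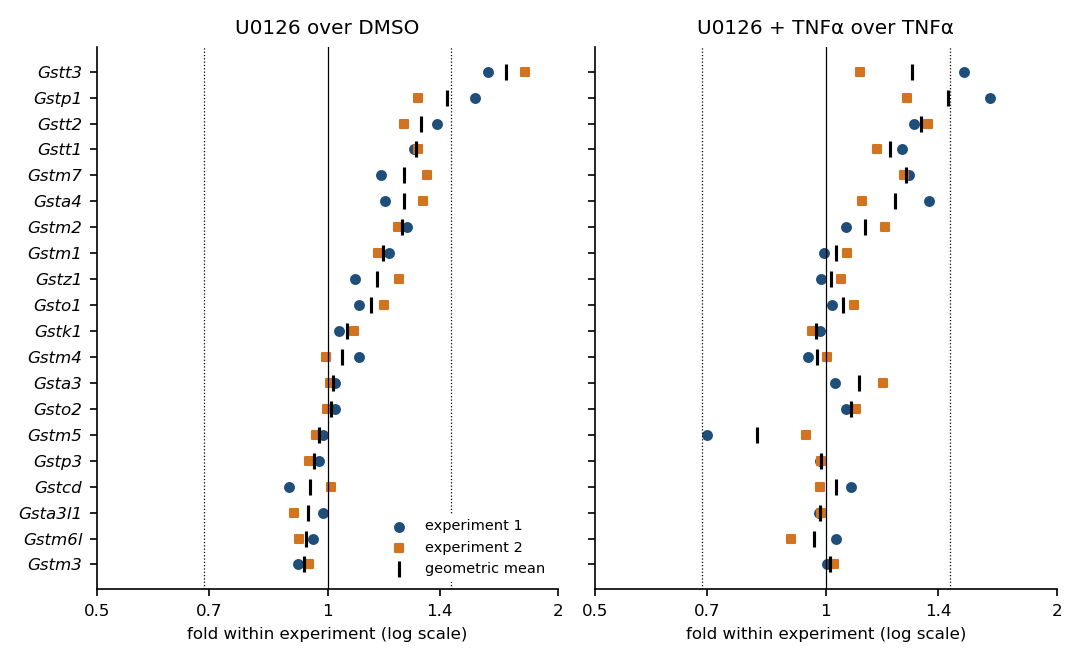
Ratio within each experiment (log scale) of the 20 glutathione transferases, for U0126 over DMSO (left) and U0126/TNFα over TNFα (right). Circles are experiment 1, squares experiment 2 and upright bars the geometric mean of the 2 ratios, and dotted lines mark 1.45-fold up and down. Gstt3 is past the line in both experiments on the left, at 1.62 and 1.81, and no transferase is past it in both on the right.

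The promoters of Gstp1, whose intensity was highest with U0126, and of Gstm5, whose intensity was highest with TNFα, are shown in the same way, with CACGC in capitals as GCGTG on the opposite strand.
Gstp1 (chr1:210769706-210769955, minus strand): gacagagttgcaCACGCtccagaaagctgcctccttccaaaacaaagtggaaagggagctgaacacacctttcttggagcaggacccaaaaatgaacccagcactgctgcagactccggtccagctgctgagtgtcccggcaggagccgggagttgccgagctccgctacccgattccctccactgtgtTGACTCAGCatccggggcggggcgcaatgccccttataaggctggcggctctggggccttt
Gstm5 (chr2:198219519-198219768, plus strand): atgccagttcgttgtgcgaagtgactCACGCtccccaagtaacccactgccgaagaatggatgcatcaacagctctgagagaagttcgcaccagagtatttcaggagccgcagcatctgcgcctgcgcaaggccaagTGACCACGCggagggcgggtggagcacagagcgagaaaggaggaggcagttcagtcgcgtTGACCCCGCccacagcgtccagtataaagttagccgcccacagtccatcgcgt

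Gstp1 held TGACTCAGC at 61 to 53 bases before the start and GCGTG on the opposite strand at 238 to 234. Gstm5 held TGACCACGC at 113 to 105, which overlaps with an opposite-strand GCGTG at 109 to 105, TGACCCCGC at 53 to 45, and an opposite-strand GCGTG at 224 to 220. The promoter of Gstt3 held none of these motifs in this window.

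In the other classes the log2 fold changes for U0126 lay between -0.35 and 0.33 but for Cyp4b1, at 0.78 as high as Gstt3. Cyp4b1 was at 1.41-fold and 2.08-fold and did not pass (± 0.21, SE, limma, adjusted p = 0.273). Among the P450 enzymes, the smallest p of a class belonged to Cyp3a9 at a log2 fold change of -0.35 ± 0.06 (SE, limma, adjusted p = 0.198), to the fatty acid hydroxylase Cyp4a8 at -0.25 (adjusted p = 0.265) and to Cyp11b1, which makes corticosteroids, at -0.22 (adjusted p = 0.307). Akr1b10 was at -0.24 (limma, adjusted p = 0.246) and Aldh3a2 at 0.21 (adjusted p = 0.287). Among the conjugating classes, Ugt2b34l1 was at -0.18 (limma, adjusted p = 0.333) and Sult5a1 at 0.11 (adjusted p = 0.493). Apart from Cyp4b1, Aldh3a2 and Sult5a1, these lie at or below the array median. The 30 P450 enzymes of families 1 to 3 had a median of -0.11 with 19 lower in both experiments, and the 4896 genes of low signal had a median of -0.06 with 47.5% lower in both. The enzymes that make retinoic acid from retinaldehyde had small values of either sign, Aldh1a2 with ratios of 0.85 and 0.92, and Aldh1a3 with ratios of 0.94 and 1.34. Neither passed.

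With U0126 present, TNFα still raised Cyp7b1 and Cyp4f17. U0126/TNFα over U0126 gave 2 enzymes that rose by limma and 0 that fell, beside 1.17% of all genes that rose. Cyp7b1 met the fold rule, beside 1.21% of all genes, at 1.56-fold and 1.68-fold (log2 0.69 ± 0.07, SE, limma, adjusted p = 0.0104). Cyp4f17 rose 1.39-fold and 1.29-fold (log2 0.43 ± 0.07, SE, limma, adjusted p = 0.0388). Both calls were lost when any 1 of the 4 arrays compared was left out, and with no block, and that of Cyp4f17 also without either DMSO array (adjusted p = 0.0613). At an unadjusted p below 0.05, 6 of the 129 were higher and 9 lower, beside 6.33% and 7.5% of all genes. Gstt3 was the lowest of all, at ratios of 0.74 and 0.48 (log2 -0.75 ± 0.14, SE, limma, adjusted p = 0.0613), and it passed when only the U0126 and U0126/TNFα arrays were fitted (adjusted p = 0.0488). The 30 P450 enzymes of families 1 to 3 had a median log2 fold change of -0.02 here, with 13 lower and 3 higher in both experiments. Genes at or below the array median had a median of -0.01, with 32.9% lower in both.

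Cyp7b1 was also the one enzyme that passed for U0126/TNFα over TNFα. It fell to 0.48 and 0.52 of its level with TNFα (log2 -1.0 ± 0.07, SE, limma, adjusted p = 0.0110), beside 0.183% of all genes that fell, and it alone met the fold rule downwards, beside 0.71% of all genes. The call was lost without the TNFα array of experiment 1 (adjusted p = 0.0526) or either U0126/TNFα array (adjusted p = 0.160 and 0.146), and without the TNFα array of experiment 2, 3 enzymes passed. Cyp4f17 was at 0.82 and 0.74 of its level with TNFα (log2 -0.36 ± 0.07, SE, limma, adjusted p = 0.0966).

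Whether U0126 changed the response to TNFα was tested as an interaction. By limma 0 of the 129 enzymes and 0 of the 14217 genes (0%) passed, whereas 8 enzymes and 1203 genes (8.46%) had an unadjusted p below 0.05. For Cyp7b1 the interaction was -0.90 ± 0.10 on the log2 scale (SE, 95% interval -1.14 to -0.65, limma, adjusted p = 0.499). For Cyp4f17 it was -0.46 ± 0.09 (SE, 95% interval -0.68 to -0.24, limma, adjusted p = 0.499). The intervals are not adjusted, so one that leaves out 0 is no call. The log2 fold change of Cyp4v3 was 0.50 without U0126 and 0.24 with it, that of Aldh16a1 0.38 and 0.18, that of Aldh3a2 0.39 and 0.16, and that of Aldh7a1 0.35 and 0.29. The 6 enzymes were chosen by their TNFα over DMSO value, which by itself tends to leave the other value smaller, so that these pairs are a description only. The interaction of Aldh7a1 was -0.05 with a 95% interval from -0.28 to 0.17 beside its response of 0.35. The 95% interval of Aldh3a2 ran from -0.44 to -0.02, that of Aldh16a1 from -0.41 to 0.00 and that of Cyp4v3 from -0.58 to 0.06.

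**Figure D4:**
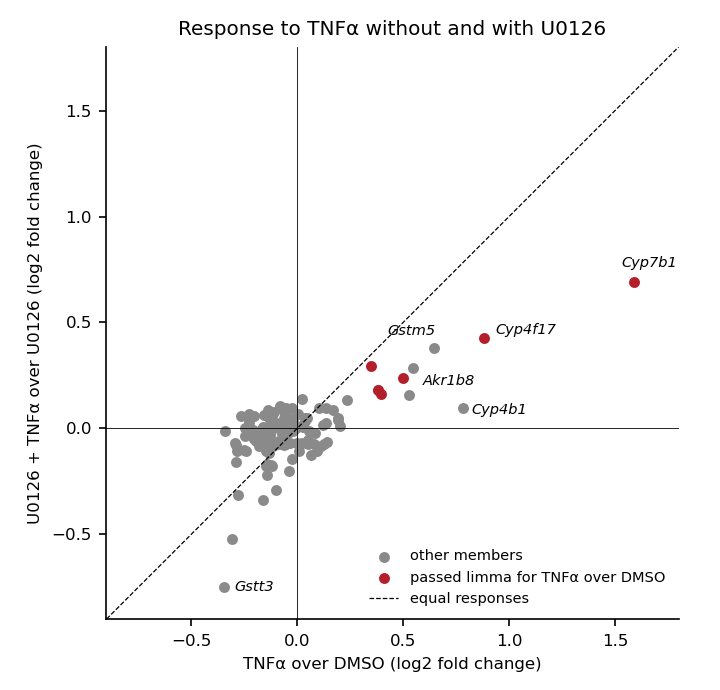
Log2 fold change of the 129 enzymes for TNFα over DMSO (horizontal) and for U0126/TNFα over U0126 (vertical), with a dashed line where both are equal. Each point is 1 gene, and the 6 that passed limma for TNFα over DMSO are in red. All 6, chosen by their value on the horizontal axis, lie below the dashed line, Cyp7b1 at 1.59 and 0.69 and Cyp4f17 at 0.88 and 0.43.

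The 2 experiments differed in every group for some enzymes. Sult1a1, a sulfotransferase of phenols, read 572 and 1122 in DMSO, 550 and 1209 in U0126, 458 and 1693 in TNFα, and 575 and 1324 in U0126/TNFα. Every array of experiment 2 was above every array of experiment 1, by 1.96-fold to 3.70-fold within a group. Aldh1a3 read 247 and 375 in DMSO, 232 and 502 in U0126, 172 and 350 in TNFα, and 141 and 400 in U0126/TNFα, 1.52-fold to 2.83-fold higher in experiment 2. Cyp4b1 was 1.62-fold to 3.12-fold higher there. These 3 of the 129 enzymes, 2.33%, were at least 1.45-fold higher in experiment 2 in all 4 groups, as were 1.98% of all genes, and 0 enzymes were lower to that extent. Akr1c14 was 1.16-fold higher in experiment 2 in TNFα and 1.90-fold to 2.37-fold higher in the other groups. The adipocyte markers Fabp4 and Plin1 were 7.13-fold to 11.6-fold and 7.70-fold to 9.46-fold higher in experiment 2, and the cartilage proteoglycan gene Acan was at 0.52 to 0.58 of its level in experiment 1. The part of these cell types in the difference was not tested. Cyp7b1 and Gstp1 did not move this way, at 0.80 to 0.93 and 0.90 to 1.2 of experiment 1.

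**Figure D5:**
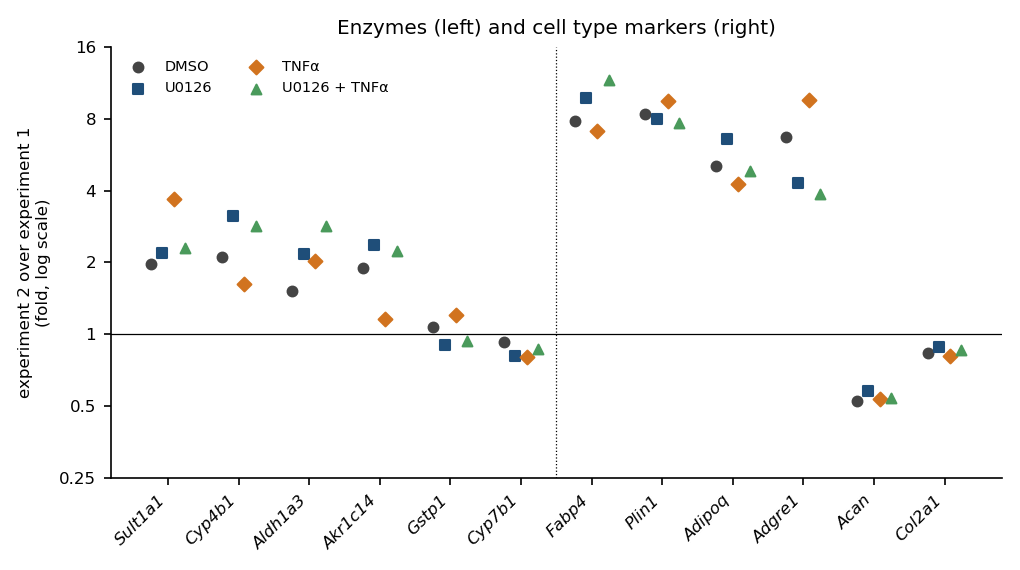
Ratio of experiment 2 to experiment 1 within each group (log scale), for 6 enzymes to the left of the dotted line and 6 cell type markers to its right. Symbols are the 4 groups. Sult1a1, Cyp4b1 and Aldh1a3 lie above 1.45 in all groups, Fabp4 lies between 7.13 and 11.6, and Acan below 1.

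Electron partners, cofactor supply, other detoxifying enzymes, export pumps and regulators of the pathway were read from 59 further genes, among them the 5 enzymes left out by the rule. For TNFα, 6 of the 59 rose and 3 fell by limma, beside 4.21% and 2.12% of all genes. The left-out Cyp1b1 (log2 0.83) and Aldh3a1 (1.61) rose. The others that rose were cytochrome b5 (Cyb5a, log2 0.38), an electron donor to P450 enzymes, Ugdh (0.60), which makes the UDP-glucuronic acid used by the UDP-glucuronosyltransferases, the quinone reductase Nqo2 (1.03) and the export pump Abcc4 (0.94). Those that fell were Papss1 (-0.35), which makes the sulfate donor, the microsomal glutathione transferase Mgst3 (-0.41) and the aldehyde oxidase Aox1 (-0.50). For U0126, 6 rose and 0 fell, beside 0.0914% of all genes that rose. They were Gclc (0.78), which catalyses the first step of glutathione synthesis, Nqo1 (1.83), the aryl hydrocarbon receptor repressor Ahrr (1.72) and the left-out Cyp1a1 (1.56), Cyp1b1 (1.35) and Aldh3a1 (1.5). For U0126/TNFα over TNFα, 4 rose, Gclc (0.80), Nqo1 (1.92), Ahrr (1.78) and the left-out Gsta1 (1.13), beside 0.183% of all genes. For U0126/TNFα over U0126, 2 fell, Aox1 (-0.79) and the left-out Cyp1a1 (-1.12), beside 0.513% of all genes. The list was drawn up with earlier results of these data known, so its counts are a description.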

How the data were processed

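The deposited values are linear summary intensities, 1 for each probe set of an array. Per the labels, the submitters' processing notes name RMA and give no version. The study's methods describe GeneSpring, with each chip set to its 50th percentile, and the deposited array medians, which are alike but not equal to 1, show that this step is not in the values. Samples were grouped by the treatment and the replicate number in their labels, and the replicate number was taken as the independent experiment, since in the methods an array is normalized to the DMSO control of the experiment it belongs to. Deviations from the group means of arrays with the same number correlated at 0.728 to 0.829 between groups. Whether a number marks the same animals is not given in the sources used here. Every column of the samples was used.

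Log2 intensities were centred on each array's median. Of 31099 probe sets, 57 controls were left out and 31042 were tested. By the array annotation of 2016, 20826 probe sets name 1 gene and 436 several. The 129 enzymes have 148 probe sets, 16 enzymes have more than 1, and 12 further probe sets that name several genes, the Ugt1a genes among them, were not used. RefSeq's gene list holds 128 of the 129. All 8 arrays were fitted with limma 3.58.1 (R 4.3.3), with a mean for each of the 4 treatments and the experiment as a block, with empirical Bayes moderation, and Benjamini-Hochberg adjustment of p ran over all probe sets tested within each of 5 comparisons, with a threshold of 0.05. Counts over all genes use 1 probe set per gene. The number of arrays limits the precision. With the experiment as a block, p values measure how far the differences between treatments varied between the 2 experiments. That spread was pooled over the 4 groups and moderated over all probe sets. limma was run on simulated data of this design, with changes added to both groups with TNFα. The condition set was on the fitted size of the change for TNFα over DMSO alone. It does not test the p values, the comparisons with U0126 or the interaction.

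The enzymes, classes, pathway lists and cell type markers were chosen with earlier results of these data known. Genes were named by a rule that takes every enzyme that passed limma or the fold rule, the enzyme with the smallest p in each class for TNFα and for U0126, and Cyp4b1, which gives 17 enzymes. Values of other enzymes (Akr1b8, Akr1c14, Aldh1a1, Aldh1a2, Aldh1a3, Cyp2d4, Cyp2u1, Cyp19a1, Cyp27b1, Gsta4, Gstm2, Gsto1, Gstp1, Gstt1, Gstt2, Sult1a1) were chosen after they were seen. Alternatives were no centring, quantile normalization, a filter that drops the 40 percent of probe sets with the lowest mean, a prior variance with a trend or robust, no replicate block, only the arrays compared, any probe set of an enzyme, leaving out each array, fold thresholds of 1.3 and 2, and the mean fold. Python 3.11.15 with pandas 2.3.3, numpy 2.4.6 and matplotlib 3.10.9 made the tables and plots.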

Additional observations from a re-analysis of the deposited data

How the results depend on the processing

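The 6 enzymes that passed limma for TNFα over DMSO became 0 with no replicate block, 2 when only the arrays compared were fitted, 5 after quantile normalization, of which 4 were among the 6 and 1 was lower, and 2 to 10 when 1 array was left out. For U0126 over DMSO, 0 became 1 when only the arrays compared were fitted and stayed at 0 under the other alternatives. For U0126/TNFα over U0126, 2 became 0 with no replicate block, 0 without the lowest 40 percent of probe sets, which leaves out Cyp7b1 and Cyp4f17 themselves, 3 when only the arrays compared were fitted, of which Gstt3 was lower, and 0 to 2 when 1 array was left out. For U0126/TNFα over TNFα, 1 became 0 with no replicate block, 0 without the lowest 40 percent, and 0 to 3 when 1 array was left out. For the interaction 0 enzymes passed under every alternative. The 3 enzymes of the fold rule for TNFα became 2 after quantile normalization, 1 at 2-fold and 5 by the mean fold over the experiments. The 1 for U0126 became 0 at 2-fold, 3 at 1.3-fold and 2 by the mean fold. The 1 for U0126/TNFα over TNFα became 0 at 2-fold and 2 at 1.3-fold, and the 1 for U0126/TNFα over U0126 became 0 at 2-fold, 2 at 1.3-fold and 2 by the mean fold. With no replicate block, Cyp7b1 for TNFα kept its log2 fold change of 1.59 with an adjusted p of 0.0559. Over the named enzymes, 293 values kept their direction and side of the threshold, 49 fell below it, 4 passed it and 0 reversed. The 293 include many values of enzymes that did not pass in the main fit, which have no call to lose. All 49 losses fell on calls of the main fit, so 293 does not measure how well those calls held. Where the lowest 40 percent of probe sets were left out, 77 of the 129 enzymes gave no value, Cyp7b1 and Cyp4f17 among them. The 6 enzymes for TNFα over DMSO became 4 there. The cause of these changes was not tested. Each group has 2 arrays, and signal over background is unknown without detection calls.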
